A study of Rattus norvegicus with 9 samples.

Results

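Autotaxin and the receptors of lysophosphatidic acid form a small signalling family of 7 genes, Enpp2 and Lpar1 to Lpar6, which were followed here in rat lung. The members were taken by name. A probe was used where the array's annotation gave it a single gene symbol that was one of these names, older symbols included. Of the 7 genes, 6 had such a probe, each exactly 1, out of 14494 named genes in all. Lpar5 had none and was not analysed here. The family itself was chosen by measured values: an earlier ranking of the same arrays had placed Lpar1 among the genes with the widest difference between the groups, and its pathway partners were taken with it. The difference of Lpar1 is therefore given as a description with no test, and the other 5 genes were tested.

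Lysophosphatidic acid is a small lipid with one fatty acid chain that acts as an extracellular signal. Autotaxin, the product of Enpp2, is a secreted enzyme that makes it by removing choline from lysophosphatidylcholine. Its receptors are G protein-coupled and fall into a group related to the sphingosine 1-phosphate receptors, Lpar1 to Lpar3, and a group related to the purine receptors, Lpar4 to Lpar6. In lung the pathway is best known for the recruitment and activation of fibroblasts through Lpar1 and for effects on endothelial barriers.

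The groups were 3 Wistar rats with metabolic syndrome (MetS) and 4 Wistar control rats, all sampled as whole lung after 24 weeks. The MetS animals drank a sucrose solution of 30% as their sole liquid and the controls drank water. Both groups ate the same standard chow and were sacrificed after a fast of 7 hours. In the labels the MetS animals are male and the sex of the controls is not stated, so an effect of sex and one of diet cannot be told apart. MetS animal 1 and control animal 1 were each measured on 2 arrays, which were averaged, so that every n counts animals. Values are log2 expression values of a whole-transcript rat gene array, on which a step of 1 is a doubling. They compare animals for the same gene, and differences in level between genes also depend on the probes.

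Markers of lung epithelium were among the brightest probes, with Sftpc of alveolar type 2 cells at 13.89 in MetS and 13.89 in controls and Ager of alveolar type 1 cells at 13.19 in MetS and 13.20 in controls. The mean of 4 heart muscle markers stood apart in 2 animals, at 9.40 in MetS animal 1 and 10.54 in control 1, against 7.73 to 7.93 in the other MetS animals and 7.39 to 7.57 in the other controls. Of the 4, Myl7 did not share this, at 7.38 in MetS animal 1 and 7.71 in control 1. Its highest value was in MetS animal 2 (8.23). The spread of values over all probes also differed, with an SD of 1.93, 1.90 and 1.88 in MetS animals 1 to 3 and 1.85, 1.77, 1.76 and 1.88 in controls 1 to 4. Over all genes the median difference, MetS minus control, was 0.04, with 62.1% of genes higher. No gene passed the test (limma, 0% of genes at an adjusted p under 0.05), 13% had an unadjusted p under 0.05, and the values of the groups did not overlap for 11.6%. In whole tissue, fewer cells of a type and less RNA per cell cannot be told apart.

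Lpar1 was the 1 member of 6 whose MetS and control animals did not overlap, a state that 11.6% of all genes shared and 5.57% with MetS higher. Enpp2 leaned the same way without passing the test, and Lpar2, Lpar3, Lpar4 and Lpar6 had differences within 0.12 of zero on the log2 scale. None of the 5 members tested passed over all probes.

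**Figure D1:**
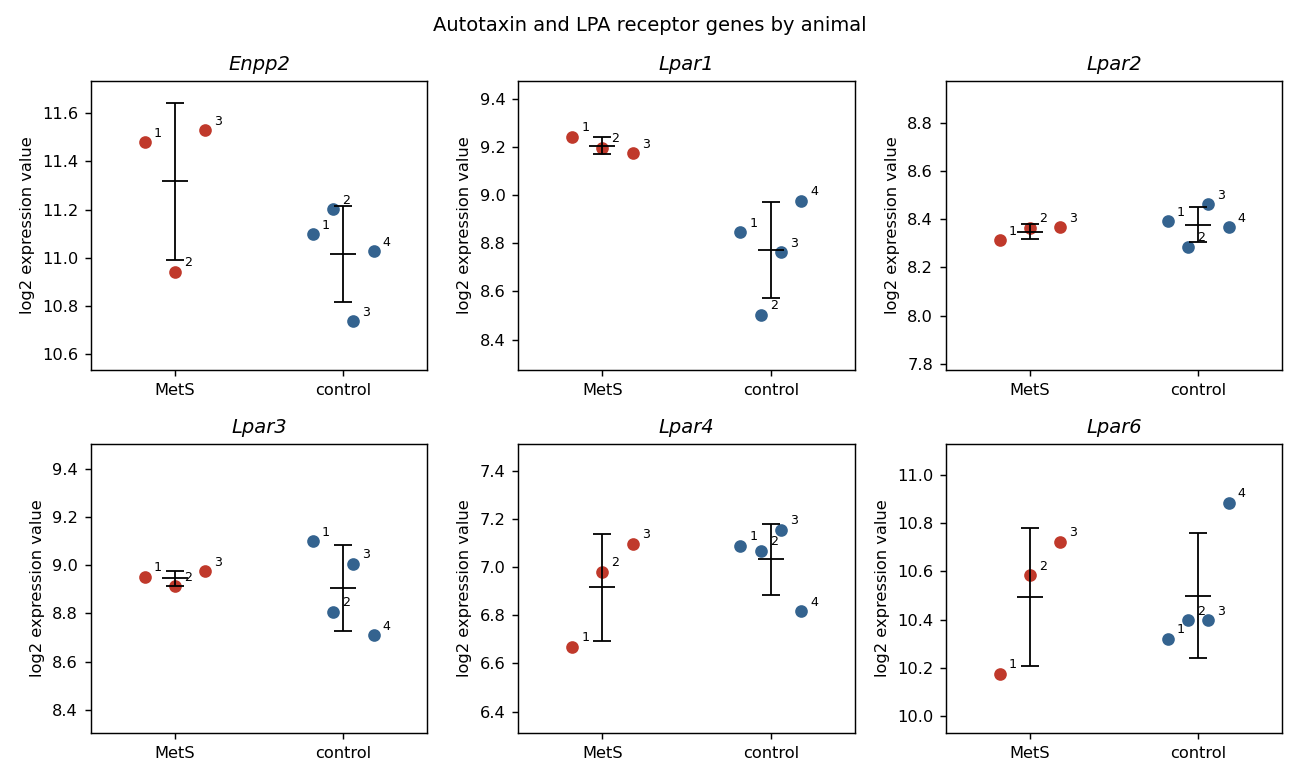
Log2 expression value (vertical axis, all panels spanning the same range) of 6 genes in MetS animals (red, 3) and controls (blue, 4); small digits give the animal and black marks the mean with its SD. The MetS points of Lpar1 lie above all its control points, whereas those of the other 5 genes overlap.

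Enpp2, which codes for autotaxin, stood at 11.48, 10.94 and 11.53 in MetS animals 1 to 3, against 11.10, 11.20, 10.74 and 11.03 in controls 1 to 4. MetS animals 1 and 3 lay above every control, while MetS animal 2 lay inside the control range. The means were 11.32 ± 0.33 (SD, n = 3) in MetS and 11.02 ± 0.20 (SD, n = 4) in controls, a difference of 0.30 with a 95% interval from -0.10 to 0.70 (limma, adjusted p = 0.452). As a ratio of MetS to control this is 1.23-fold, with an interval from 0.934 to 1.62. MetS animal 2 decided much of the size: the difference was 0.49 when it was left out, 0.19 when MetS animal 3 was, and with array weights 0.20.

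The 2 arrays of one animal hardly differed for this gene, by 0.0024 in MetS animal 1 and 0.0058 in control 1. At which step the repeats were split was not stated in the labels, and technical differences between animals are not covered by them. Fat tissue is known as a rich source of autotaxin, so fat cell markers are given beside it; their part in the Enpp2 values was not tested. Adiponectin, Adipoq, averaged 6.79 in MetS and 6.84 in controls, and the mean of 5 fat cell markers ran from 6.87 to 7.17 in MetS and from 6.93 to 7.16 in controls, with 1 marker higher and 4 lower in MetS.

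MetS animal 2, the low one for Enpp2, was also lowest of the MetS animals in the mean of 5 alveolar type 2 markers, at 12.77 against 12.87 and 12.85 in MetS animals 1 and 3, with controls between 12.79 and 12.81. The same held for 5 macrophage markers, at 9.16 in MetS animal 2 and 9.59 and 9.36 in MetS animals 1 and 3, with controls between 9.42 and 9.51. So it did for 5 alveolar type 1 markers, at 12.55 in MetS animal 2 and 12.68 and 12.64 in MetS animals 1 and 3, with controls between 12.57 and 12.64. Control 3, the lowest control for Enpp2, was inside the control range for alveolar type 2 markers (12.80). It was the highest control for alveolar type 1 markers (12.64) and the lowest for macrophage markers (9.42). Single markers of these lists did not all share this order. Among the MetS animals, Sftpc, Marco and Adgre1 were lowest in animal 1, and Abca3 and Hopx in animal 3. In other lists MetS animal 2 was the highest MetS animal. Its mean was 8.93 for smooth muscle, 11.26 for airway epithelium and 9.04 for T and B lymphocyte markers. The part of any of these cell types in the Enpp2 values was not tested.

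Lpar1, the receptor best known from fibroblasts and from the sheath cells of nerves, stood at 9.24, 9.20 and 9.17 in MetS animals 1 to 3, against 8.85, 8.50, 8.76 and 8.98 in controls 1 to 4. The lowest MetS animal lay 0.20 above the highest control. The MetS animals were close together, with a mean of 9.20 ± 0.03 (SD, n = 3), and the controls were wider, at 8.77 ± 0.20 (SD, n = 4). The difference was 0.43, or 1.35-fold. It ranged from 0.34 to 0.50 when single animals were left out, the smallest without control 2.

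Repeat arrays show how far 2 arrays of the same animal differed, in 2 animals. They do not cover technical differences between animals, and at which step the repeats were split was not stated in the labels. Lpar1 differed by 0.04 between the 2 arrays of MetS animal 1 and by 0.01 between those of control 1. Over all probes the median absolute difference between such arrays was 0.0609 in MetS animal 1 and 0.0754 in control 1.

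The Lpar1 values ran in nearly the same order as the spread of the arrays. From high to low, Lpar1 put MetS animals 1, 2 and 3 first, then control 4, control 1, control 3 and control 2. The SD over all probes had MetS animals 1 and 2 first, then control 4, MetS animal 3, control 1, control 2 and control 3. With this SD as a covariate the Lpar1 difference was 0.21, and without controls 2 and 3, the animals of narrowest spread, it was 0.29. Since the SD itself was higher in MetS on average, array spread and diet group cannot be told apart here.

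**Figure D2:**
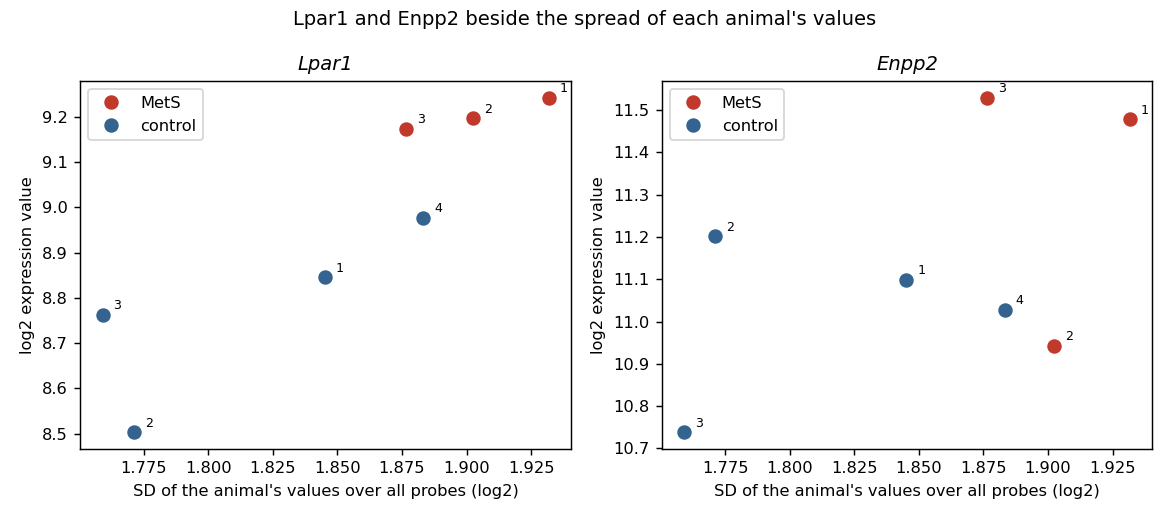
Log2 expression value of Lpar1 (left) and Enpp2 (right) against the SD of the same animal's values over all probes, for MetS animals (red) and controls (blue), with the animal number beside each point. Lpar1 climbs with the SD from controls 2 and 3 to MetS animal 1, and at almost the same SD MetS animal 3 (9.17) lies above control 4 (8.98); Enpp2 shows no such order.

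Taken as lists, the markers of cells known to carry Lpar1 overlapped between the groups. The mean of 8 fibroblast and pericyte markers ran from 9.03 to 9.11 in MetS and from 8.93 to 9.10 in controls, with 5 markers higher and 3 lower. Of the 8, the groups did not overlap for 1, Tcf21, a transcription factor of lung fibroblasts, where 11.6% of all genes had such groups. It stood at 9.57, 9.64 and 9.60 in MetS against 9.31, 9.33, 9.34 and 9.37 in controls (limma, adjusted p = 0.324). Col1a1, a main fibrillar collagen of activated fibroblasts, averaged 8.75 in MetS and 8.80 in controls. The other collagen genes of the list leaned the other way. Col1a2 averaged 9.05 in MetS and 8.88 in controls, and Col3a1 9.08 in MetS and 9.02 in controls.

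All 4 smooth muscle markers were higher on average in MetS, with a median difference of 0.32. Their mean was 8.41, 8.93 and 8.40 in MetS animals 1 to 3, against 8.50, 8.002, 8.08 and 8.48 in controls 1 to 4. Controls 2 and 3 were lowest for these markers as they were for Lpar1, but the groups overlapped, and none of the 4 passed the test. The part of smooth muscle content in the Lpar1 values was not tested.

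**Figure D3:**
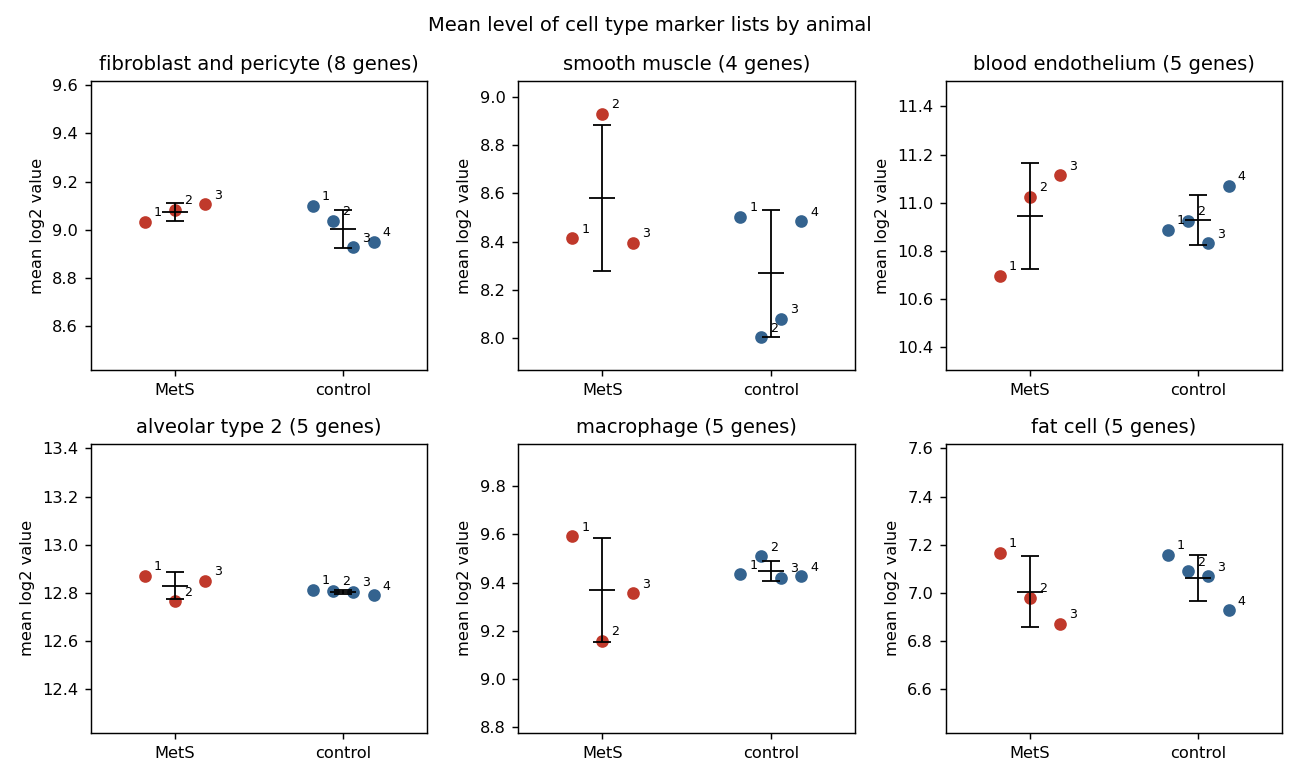
Mean log2 value of 6 cell type marker lists in MetS animals (red, 3) and controls (blue, 4), with the mean and SD in black and the animal number beside each point. The groups overlap in all 6 panels; smooth muscle has its highest point in MetS animal 2 (8.93) and its lowest in control 2 (8.002).

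Lpar2 and Lpar3, the other receptors of the same group, had group means close to each other. Lpar2, which in lung is found on epithelium and on immune cells, stood at 8.31, 8.37 and 8.37 in MetS animals 1 to 3, against 8.39, 8.29, 8.46 and 8.37 in controls 1 to 4. All 3 MetS animals lay inside the control range. The difference was -0.03, with a 95% interval from -0.18 to 0.12 (limma, adjusted p = 0.842), the narrowest interval of the 5 genes tested. In ratio terms, MetS over control, that interval runs from 0.886 to 1.09.

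Lpar3, a receptor known in mice for its role in embryo implantation, stood at 8.95, 8.91 and 8.97 in MetS animals 1 to 3, against 9.10, 8.81, 9.01 and 8.71 in controls 1 to 4. The MetS values again fell inside the wider control range, with SDs of 0.03 (n = 3) in MetS and 0.18 (n = 4) in controls. The difference was 0.04, with a 95% interval from -0.20 to 0.28 (limma, adjusted p = 0.859), and its sign turned without control 4 (-0.02) and after another quantile normalization (-0.03).

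In the group related to the purine receptors, Lpar4 was the dimmest member, at percentile 35.6 of all probe means. Lpar4, which is known in mice from blood vessel formation, stood at 6.67, 6.98 and 7.10 in MetS animals 1 to 3, against 7.09, 7.07, 7.15 and 6.82 in controls 1 to 4. MetS animal 1 was the lowest of the 7, followed by control 4. The difference was -0.12, with a 95% interval from -0.41 to 0.18 (limma, adjusted p = 0.668). It was 0.01 without MetS animal 1 and 0.13 with the SD of the arrays as a covariate. The repeat arrays of control 1 differed by 0.16 for this gene, more than the difference between the groups.

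Lpar6, a receptor whose loss causes a hereditary hair disorder in humans, stood at 10.18, 10.58 and 10.72 in MetS animals 1 to 3, against 10.32, 10.40, 10.40 and 10.88 in controls 1 to 4. Each group held both low and high animals: the lowest of the 7 was MetS animal 1 and the highest control 4. The means were 10.49 ± 0.29 (SD, n = 3) in MetS and 10.50 ± 0.26 (SD, n = 4) in controls, a difference of -0.0047 with a 95% interval from -0.42 to 0.41 (limma, adjusted p = 0.991). As a ratio of MetS to control the interval runs from 0.746 to 1.33, so changes of that size in either direction could not be resolved in these 7 animals.

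Lpar6 was set beside the markers of blood vessel endothelium, where the gene is known to be expressed. The mean of 5 such markers was 10.70, 11.03 and 11.11 in MetS animals 1 to 3, against 10.89, 10.93, 10.83 and 11.07 in controls 1 to 4. MetS animal 1 was lowest in both, and MetS animal 3 and control 4 were the highest 2 in both. Of the single markers, Cdh5 and Kdr had these same extremes. Pecam1, Tek and Cldn5 had MetS animal 2 among their highest 2, and Pecam1 was lowest in control 3 (11.19). Markers of T and B lymphocytes were likewise lowest in MetS animal 1, with a mean of 8.35, and ran from 8.54 to 9.04 in the other 6 animals. The part of either cell type in the Lpar6 values was not tested.

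**Figure D4:**
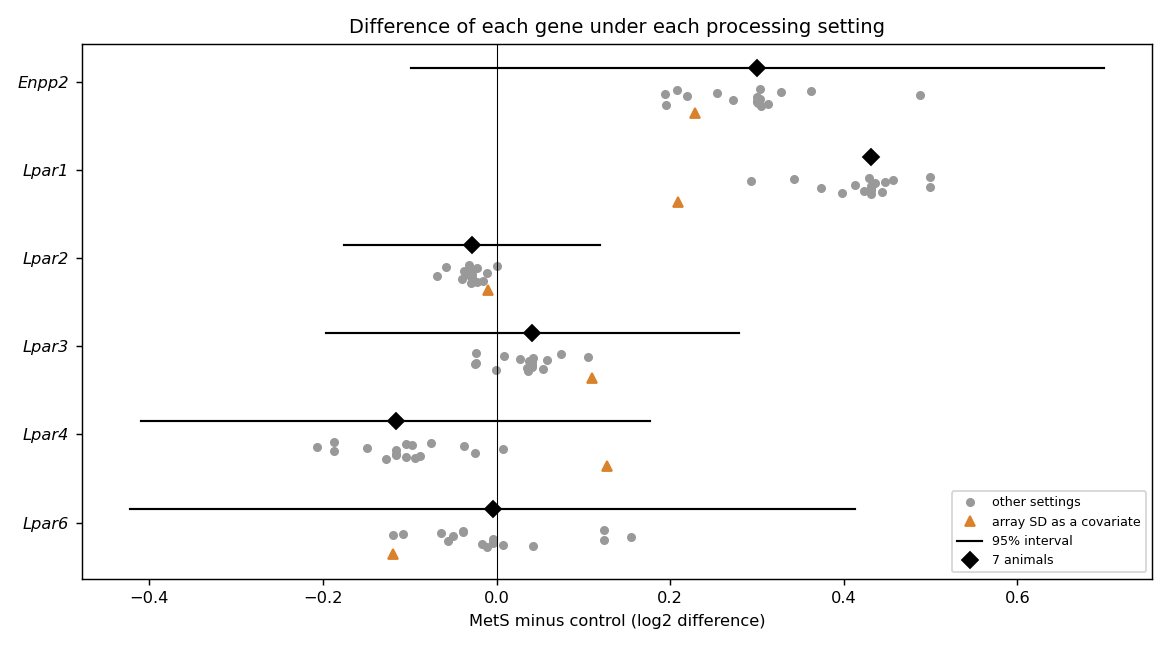
MetS minus control (log2 difference, horizontal axis) for each gene from all 7 animals (black diamond), with its 95% interval where it was tested, under 17 other settings (grey) and with array spread as a covariate (orange). Every setting leaves Lpar1 and Enpp2 above zero, though leaving animals out could not turn Lpar1, whose groups do not overlap. Lpar1 is smallest with the covariate (0.21). The other 4 genes lie on both sides of zero.

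The genes around the receptors were described from lists of enzymes, relatives and downstream genes. No listed gene passed the test over all probes. Among 13 genes that make lysophosphatidic acid or supply its precursors, 10 were higher and 3 lower on average, with a median difference of 0.13 against 0.04 over all genes. The groups did not overlap for 2, 1 in each direction. Of all genes 11.6% had such groups, 5.57% with MetS higher and 6.02% with MetS lower. Lipi, a membrane lipase whose human counterpart makes the lipid from phosphatidic acid, stood at 4.57, 4.60 and 4.86 in MetS animals 1 to 3, against 5.31, 5.87, 5.90 and 4.89 in controls 1 to 4 (limma, adjusted p = 0.324). It is a dim probe, at percentile 7.70 of all probe means, and its difference of -0.82 became -0.43 without controls 2 and 3 and -0.13 with the SD of the arrays as a covariate.

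Pld2, a phospholipase D that makes phosphatidic acid, averaged 8.76 in MetS and 8.56 in controls (limma, adjusted p = 0.473), and MetS exceeded the highest control by just 0.0050. Liph, the epithelial relative of Lipi, averaged 8.39 in MetS and 8.16 in controls with a small overlap (limma, adjusted p = 0.340). The difference of Pld2, 0.19, was within the control SD of 0.22 and turned with the SD of the arrays as a covariate (-0.03). That of Liph, 0.23, exceeded the control SD of 0.11. Unlike Pld2, Liph was not examined singly under that covariate, with which 2 of the 13 genes of this list were higher.

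Genes that break the lipid down or build it into other lipids included 7 higher and 4 lower of 11, with a median difference of 0.09. None had groups that did not overlap, where 11.6% of all genes had such groups. The members of smallest p were Plpp2, a lipid phosphate phosphatase, at 8.51 in MetS and 8.35 in controls (limma, adjusted p = 0.454), and Agpat4, an acyltransferase, at 9.11 in MetS and 8.94 in controls (limma, adjusted p = 0.469). Plpp3, the phosphatase known to inactivate the lipid at the surface of endothelium, averaged 10.29 in MetS and 10.30 in controls. Both lists turned with array spread as a covariate, to 2 of 13 higher among the genes that make the lipid and 2 of 11 among those that break it down. Without controls 2 and 3 the counts were 8 of 13 and 6 of 11. The share of all genes that were higher moved too, from 62.1% to 48.8% with the covariate and to 54.8% without controls 2 and 3.

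The autotaxin relatives Enpp1 and Enpp3 to Enpp7 had 2 higher and 4 lower of 6, with a median difference of -0.07. Enpp1, which makes pyrophosphate and restrains mineral deposits, averaged 10.40 in MetS and 10.55 in controls (limma, adjusted p = 0.594). Its difference of -0.15 was -0.03 with MetS animal 2 left out, -0.26 with MetS animal 3 left out and -0.09 with control 1 left out. Enpp6, a choline phosphodiesterase, averaged 6.31 in MetS and 6.44 in controls (limma, adjusted p = 0.546), and its difference of -0.13 was -0.05 without control 4.

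The sphingosine 1-phosphate receptors, which are related to Lpar1, Lpar2 and Lpar3, had 2 higher and 2 lower of 4, with a median difference of 0.10. None of the 4 had groups that did not overlap, against 11.6% of all genes. S1pr5, a receptor of natural killer cells, stood at 7.79, 8.99 and 9.16 in MetS animals 1 to 3, against 8.07, 8.39, 8.22 and 8.22 in controls 1 to 4 (limma, adjusted p = 0.536). MetS animals 2 and 3 were the highest and MetS animal 1 the lowest of the 7. Leaving out MetS animal 1, 2 or 3 turned its difference of 0.42 into 0.85, 0.25 or 0.17. S1pr1, the endothelial and lymphocyte receptor, averaged 10.54 in MetS and 10.32 in controls (limma, adjusted p = 0.488), a difference of 0.21 that was 0.35 with MetS animal 1 left out and 0.11 with MetS animal 3 left out. Of 4 other genes said to respond to the lipid, 2 were higher and 2 lower. Pparg, a nuclear receptor of lipid metabolism, averaged 10.0001 in MetS and 9.8951 in controls (limma, adjusted p = 0.832), and the G protein-coupled receptor gene Gpr35 averaged 8.07 in MetS and 8.13 in controls (limma, adjusted p = 0.809).

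**Figure D5:**
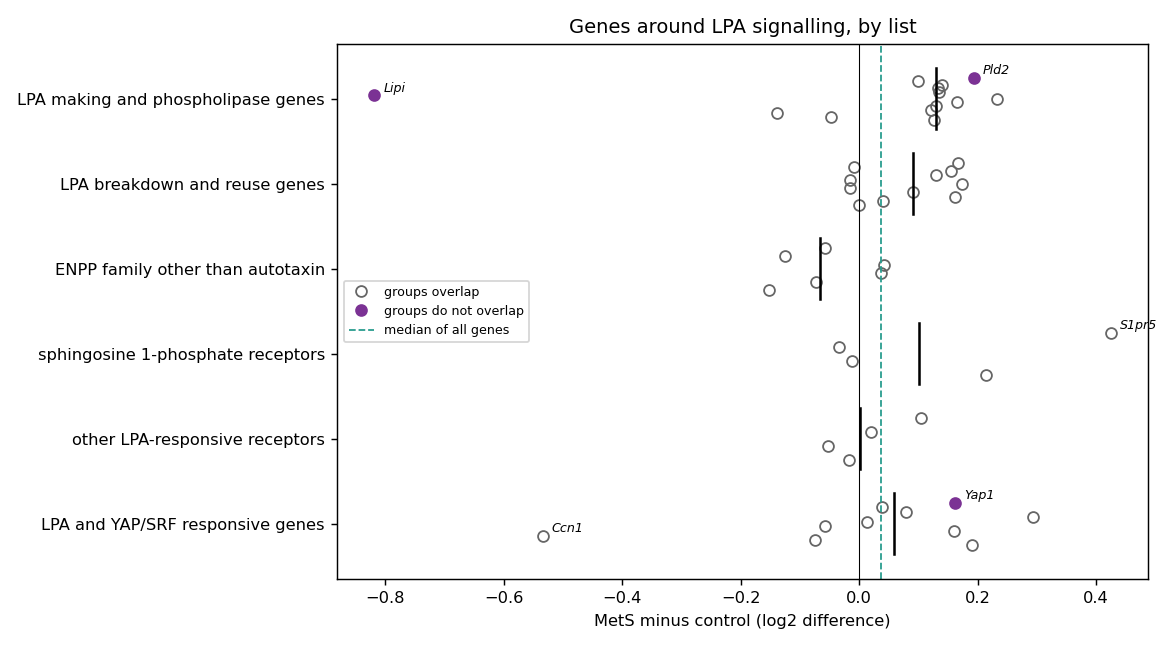
MetS minus control (log2 difference, horizontal axis) of each gene in 6 lists around lysophosphatidic acid (LPA) signalling; filled points are genes whose groups do not overlap, black bars the list medians and the dashed line the median of all genes (0.04). Lipi (-0.82) lies farthest to the left, and S1pr5 (0.42) farthest to the right.

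Of 10 genes in a list that mixes regulators and targets of YAP and SRF signalling with integrin and TGF-beta genes, 7 were higher and 3 lower, with a median difference of 0.06. Without controls 2 and 3 the split was 3 higher and 7 lower, with a median of -0.02, while 54.8% of all genes were higher. Yap1 itself, a transcriptional coactivator of growth genes, averaged 9.54 in MetS and 9.38 in controls (limma, adjusted p = 0.368). It was the 1 gene of the 10 whose groups did not overlap, where 11.6% of all genes had such groups. Ccn1, a matrix-associated protein and early target of this pathway, stood at 9.83, 10.12 and 10.67 in MetS animals 1 to 3, against 10.49, 10.92, 10.63 and 10.92 in controls 1 to 4. Its difference was -0.53 (limma, adjusted p = 0.344), opposite in sign to that of Yap1, and MetS animal 3 lay inside the control range. Ccn2, the related connective tissue growth factor, averaged 10.47 in MetS and 10.31 in controls (limma, adjusted p = 0.755).

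The genes whose values over the 7 animals most resembled those of Lpar1 were sought among 11998 named genes of adequate brightness, by Pearson r as a description. They were Erlin2 of the endoplasmic reticulum membrane (r = 0.993), the vesicle coat gene Sar1a (r = 0.990), the chromosome maintenance gene Smc5 (r = 0.989), Slf1 (r = 0.988) and the endocytosis gene Eps15 (r = 0.988). After the group means were taken out, r was between 0.962 for Smc5 and 0.992 for Eps15. Their differences, between 0.12 and 0.23, were smaller than that of Lpar1, and all 5 had groups that did not overlap, which a close match to Lpar1 entails. The genes compared were measured on the same arrays, and the part of array spread in these likenesses was not tested.

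For Enpp2 the closest were the lysosomal enzyme gene Aga (r = 0.968), the signalling regulator Rgs1 (r = 0.966), the disulfide isomerase gene Pdia3 (r = 0.963), the lymphocyte activation marker Cd69 (r = 0.961) and Atp6ap2, the prorenin receptor (r = 0.956). None of the 5 had groups that did not overlap, where 11.6% of all genes had such groups. Rgs1 had the widest range, at 9.09, 7.95 and 9.29 in MetS animals 1 to 3, against 8.58, 8.68, 7.50 and 8.51 in controls 1 to 4. As for Enpp2, MetS animals 1 and 3 were above all controls, and control 3 was the lowest of the 7. The lists most like Lpar1 and Enpp2 had no gene in common, which says little for lists of 5 picked from 11998 genes.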

How the data were processed

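Lung RNA of 7 rats was measured on 9 arrays, from 50 ng of total RNA with an RNA integrity number of at least 6, per the labels' protocols. As deposited, the values are log2 expression values, with a row for each probe (transcript cluster) and a column for each array. Per the submitters' processing notes the tools were R 2.11.0, RMA and limma, whose roles and build were not given in the sources used here. Array medians lay between 7.64 and 7.69. Depth has no meaning for arrays; the number of animals limits the precision.

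The 2 arrays of an animal were averaged. Of 28826 probes, 15209 had 1 gene symbol, 306 several and 13311 none; symbols were updated through RefSeq (GRCr8, names only). The probe of highest mean stood for a gene. MetS minus control was fitted with lmFit and eBayes (limma 3.58.1, R 4.3.3; 7.28 degrees of freedom) with Benjamini-Hochberg adjustment over all probes at 0.05. The fit was also run on simulated data. The simulated probes had independent errors and differences larger than any member's, so that run does not bear on the members. Other steps used Python 3.11.15, numpy 2.4.6, pandas 2.3.3 and matplotlib 3.10.9.

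Members and lists were chosen with earlier results of these data known. Named were all members, up to 4 genes a list whose groups did not overlap (filled up to 2 with those of smallest p where fewer were found), and the 5 genes most like Lpar1 and Enpp2 above the 25th percentile of probe means (6.48). Liph, Plpp3, Ccn2, Tcf21, Col1a1, Col1a2, Col3a1, Adipoq, Sftpc and Ager were added after their values were seen. So were Abca3, Hopx, Marco, Adgre1, Pecam1, Cdh5, Kdr, Tek, Cldn5 and Myl7. The labels give no shared animal or batch for equal replicate numbers, so the main fit did not pair the animals by number. The deviations from the group means of MetS and control animals numbered 1 to 3 had correlations of 0.27, -0.12 and 0.34. Whether animals of equal number shared a batch was not tested. The alternatives were other uses of the repeat arrays, normalizations, filters, moderation and weights, the spread (SD) of an animal's values as a covariate, the replicate number as a block, and animals left out. Lpar5 was not analysed here, and 1 further list is not reported here.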

Additional observations from a re-analysis of the deposited data

Results flagged for a closer look

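Lpar6 was at 10.18, 10.58 and 10.72 in the MetS animals, while among the controls 1 animal stood far from the rest, which is what drew attention to it: control 4 was at 10.88 and the other 3 between 10.32 and 10.40. Its gap to the nearest control was 0.864 of the control range. Controls 2 and 3 had the same deposited value for Lpar6, as 40.9% of probes had on at least 2 arrays. Rgs1, one of the genes most like Enpp2, was at 9.09, 7.95 and 9.29 in the MetS animals. It drew attention because control 3, at 7.50, stood far below the other 3 controls, between 8.51 and 8.68, with a gap of 0.860 of the control range. Such a gap arises by chance in about 1 group in 20. The members, the list genes picked by overlap or smallest p and the genes most like Lpar1 and Enpp2 were all checked for it, so some such gaps are expected by chance.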

How the results depend on the processing

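Over 18 alternatives Enpp2 and Lpar1 kept their direction, with differences from 0.19 to 0.49 for Enpp2 and from 0.21 to 0.50 for Lpar1. Lpar1 was chosen for its difference and its groups do not overlap, so leaving animals out could not turn its sign. Filtering probes, changing the moderation and averaging the probes of a gene left both differences unchanged by construction. The replicate block gave both the same difference as leaving out control 4. No member tested reached an adjusted p under 0.05 (limma, the smallest was 0.337, for Lpar4). The 0.21 of Lpar1 came with array spread (SD) as a covariate. That covariate also gave 0.13 for Lpar4, -0.0288 for Pld2, -0.0268 for Agpat4, 0.17 for Gpr35 and -0.38 for Pparg, and list medians of -0.0484 for genes making the lipid, -0.10 for breakdown, -0.19 for autotaxin relatives, -0.11 for other responsive receptors and -0.10 for YAP and SRF genes. Another quantile normalization gave -0.0255 for Lpar3 and 0.0566 for Enpp6, centring on the median gave 0.0075 for Lpar6, and array weights gave -0.0003 for Lpar3, 0.0419 for Lpar6 and -0.025 for Pparg. Without controls 2 and 3, Gpr35 was 0.07, Pparg -0.12 and the median of the genes making the lipid 0.025. Leaving out 1 animal gave -0.0587 to 0.0001 for Lpar2, -0.0241 to 0.11 for Lpar3, -0.21 to 0.0068 for Lpar4, -0.12 to 0.16 for Lpar6 , -0.13 to 0.26 for Pparg, -0.12 to 0.0086 for Gpr35 and -0.0949 to 0.0086 for the median of autotaxin relatives. Over all genes the median difference was -0.003 with array spread as a covariate and 0.0099 without controls 2 and 3. The cause of these turns was not tested. With the replicate number as a block, in which control 4 has no partner and adds nothing to the difference, 2017 probes passed at an adjusted p under 0.05, where 0 did without it; Lpar3 was -0.0241 and Lpar6 0.12, no member tested passed, and among the named genes Lipi did (adjusted p = 0.0221). The number did not mark a shared animal. By deviations from the group means, MetS animal 1 and control 1 resembled each other most across the groups, and control 3 resembled MetS animal 3 most. The closest match of each remaining animal had another number. Whether animals of equal number shared a batch was not tested.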
